A study of Mus musculus with 180 samples.

Results

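The NRF2 antioxidant genes described here are 10 mouse genes, *Gclc*, *Gclm*, *Slc7a11*, *Gsr*, *Txnrd1*, *Srxn1*, *Prdx1*, *Nqo1*, *Hmox1* and *Sqstm1*, chosen by their symbols and followed across all conditions of an RNA-seq screen of clinical kinase inhibitors (CKIs). They are 10 of the 45070 genes in the table, and all 10 were among the 12714 genes tested. The cells were bone marrow-derived macrophages (BMDMs), macrophages grown in culture from the marrow of wild type, young adult male C57BL/6 mice. A CKI, 1 of 58, or DMSO alone was present for 1 h before LPS, a bacterial cell wall component sensed by TLR4, was added at 10 ng/ml for 2 h. Each CKI was measured in 3 samples and DMSO in 6, which the labels divide into 2 sets of 3, so that the screen holds 180 samples in 59 groups. Every sample, DMSO included, received LPS, and the levels are therefore those of stimulated macrophages. The study speaks of independent biological replicates without saying whether these were separate mice or separate cultures of 1 marrow preparation, so that p-values measure the spread between these samples.

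NRF2, the product of *Nfe2l2*, is a transcription factor that KEAP1 holds at a low level by handing it to a CUL3 ubiquitin ligase. Electrophiles and oxidants modify cysteines of KEAP1, NRF2 then accumulates, pairs with a small MAF protein and binds antioxidant response elements, short DNA sequences near the genes of glutathione synthesis, thioredoxin recycling, NADPH production and heme breakdown. In macrophages this program limits oxidative damage during inflammatory activation, and BACH1 competes for the same elements. Covalent kinase inhibitors carry an electrophilic group that reacts with a cysteine in the kinase. Afatinib, Neratinib and Poziotinib are covalent inhibitors of the ERBB receptor kinases, whereas Lapatinib and AC480 are reversible ones. Each CKI was used at a concentration set by its binding to an intended target, so that concentrations were not matched. Afatinib was used in the low micromolar and Neratinib in the low nanomolar range, and their values are given side by side without a test between compounds.

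On mm10, the genes of glutathione synthesis and recycling lie apart, *Gclc* at chr9:77754535-77794489 (+ strand), *Gclm* at chr3:122245557-122267215 (+ strand), *Slc7a11* at chr3:50364936-50443613 (- strand) and *Gsr* at chr8:33653238-33698162 (+ strand). The thioredoxin and peroxiredoxin genes are *Txnrd1* at chr10:82833951-82897724 (+ strand), *Srxn1* at chr2:152105524-152111376 (+ strand) and *Prdx1* at chr4:116685599-116700000 (+ strand). The remaining genes are *Nqo1* at chr8:107388225-107403205 (- strand), *Hmox1* at chr8:75093618-75100593 (+ strand) and *Sqstm1* at chr11:50200152-50210820 (- strand), so that *Gsr*, *Nqo1* and *Hmox1* share a chromosome and the values are those of all exons of each gene.

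Promoter windows of 300 bases, from 250 bases before to 50 bases after the start of transcription, were available from RefSeq (build GRCm38.p6) for 7 of the 10 genes. They were searched on both strands for the antioxidant response element core TGACNNNGC, for the AP-1 site TGANTCA, which can overlap the former as TGACTCAGC, and for TGATGNAA, the core of the C/EBP-ATF element used by ATF4. The antioxidant core was present in 12.4% of all 32851 windows, the AP-1 site in 7.81% and the C/EBP-ATF core in 3.97%. The windows of the 3 genes that rose with Afatinib are shown, together with that of *Slc7a11*, with matches to any of the 3 motifs in capitals and the strand of the gene read 5′ to 3′.

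Srxn1, chr2:152105274-152105573 (+ strand): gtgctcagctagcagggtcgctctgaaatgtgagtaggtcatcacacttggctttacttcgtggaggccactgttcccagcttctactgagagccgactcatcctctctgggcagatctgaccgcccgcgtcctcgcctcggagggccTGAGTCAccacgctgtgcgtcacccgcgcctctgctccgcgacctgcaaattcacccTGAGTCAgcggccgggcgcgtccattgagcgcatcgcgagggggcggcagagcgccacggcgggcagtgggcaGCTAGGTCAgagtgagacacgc
Prdx1, chr4:116685349-116685648 (+ strand): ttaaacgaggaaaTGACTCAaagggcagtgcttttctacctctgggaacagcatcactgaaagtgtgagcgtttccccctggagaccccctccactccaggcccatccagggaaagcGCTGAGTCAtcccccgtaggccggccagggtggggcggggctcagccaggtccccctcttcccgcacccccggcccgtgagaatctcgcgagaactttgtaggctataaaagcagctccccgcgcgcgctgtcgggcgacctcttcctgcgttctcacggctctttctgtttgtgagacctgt
Gclm, chr3:122245307-122245606 (+ strand): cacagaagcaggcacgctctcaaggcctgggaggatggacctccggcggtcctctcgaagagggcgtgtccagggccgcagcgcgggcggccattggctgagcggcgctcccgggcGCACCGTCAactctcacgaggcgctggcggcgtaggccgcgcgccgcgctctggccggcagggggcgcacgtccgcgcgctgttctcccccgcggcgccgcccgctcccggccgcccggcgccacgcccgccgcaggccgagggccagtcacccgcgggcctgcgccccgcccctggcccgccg
Slc7a11, chr3:50443564-50443863 (- strand): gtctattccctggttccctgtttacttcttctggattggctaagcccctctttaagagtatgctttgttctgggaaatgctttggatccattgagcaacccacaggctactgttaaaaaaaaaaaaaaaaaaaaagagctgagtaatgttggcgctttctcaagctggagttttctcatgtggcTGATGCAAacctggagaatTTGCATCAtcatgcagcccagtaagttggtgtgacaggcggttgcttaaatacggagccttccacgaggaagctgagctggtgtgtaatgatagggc

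In *Prdx1* an antioxidant core and an AP-1 site overlapped at positions -133 to -125 from the start of transcription, and a further AP-1 site lay at -237 to -231. *Srxn1* held AP-1 sites at -102 to -96 and at -45 to -39 and an antioxidant core at 29 to 37, after the start. *Gclm* held an antioxidant core at -134 to -126. In *Slc7a11* neither of these was found, but 2 C/EBP-ATF cores lay at -66 to -59 and at -47 to -40. Of the 3 windows of *Txnrd1*, that at chr10:82858956-82859255 held an antioxidant core. The antioxidant cores of *Prdx1*, *Srxn1*, *Gclm* and *Txnrd1* were all on the strand opposite to that of the gene. The windows of *Nqo1* and *Sqstm1* held none of the 3 motifs. These are matches of letters within a short window, and elements outside it were not searched.

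The values are exonic reads per gene that the authors scaled on genes of stable expression and rounded to whole numbers, called normalized values here. Their total was 9477340 to 12273349 per sample. All 7 macrophage markers (*Adgre1*, *Csf1r*, *Itgam*, *Cd68*, *Lyz2*, *Mertk*, *Fcgr1*) were expressed, with a summed level of 82123 to 185730 in DMSO and 71409 to 211689 with the CKIs. All 5 LPS response markers passed the filter on low values, whereas none of the 5 T cell, 3 B cell and 3 erythroid markers did. Of the other markers, 4 of 5 neutrophil, 1 of 3 dendritic cell and 2 of 4 fibroblast markers passed it, and the summed neutrophil markers were 185 to 526 in DMSO and 121 to 1444 with the CKIs. The share of the values on mitochondrial transcripts differed between groups, from 0.834% with NMS1286937 through 1.15% in DMSO to 3.66% with Pimasertib, and is given beside results it moves with. In bulk RNA a change in the number of cells of a type cannot be told apart from a change of RNA per cell.

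Per kilobase of exon, the DMSO levels of the 10 genes spanned more than 3 orders of magnitude. *Sqstm1*, the autophagy receptor p62 that also binds KEAP1, was highest at 29871 per kb. It was followed by *Prdx1*, a peroxiredoxin that reduces hydrogen peroxide, at 7491, by *Hmox1*, heme oxygenase 1, at 2284, and by *Txnrd1*, cytosolic thioredoxin reductase, at 574. *Srxn1*, the sulfiredoxin that repairs over-oxidized peroxiredoxins, had 107 per kb. *Slc7a11*, the cystine importer xCT, and *Gsr*, glutathione reductase, had 35.0 and 34.2 per kb. The lowest were the quinone reductase *Nqo1* at 28.6 and the modifier and catalytic subunits of glutamate-cysteine ligase, *Gclm* at 11.1 and *Gclc* at 4.77 per kb. For *Gclc* and *Gclm* the normalized values of the DMSO samples were between 13 and 33, so that their fold changes rest on few reads. Exons of *Gclm* share 296 bases with an antisense transcript and 244 bases with a transcribed pseudogene, and 580 bases of *Sqstm1* are shared with exons of *Mrnip* on the other strand. The library method does not mark the strand, and reads of such overlaps cannot be assigned.

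With Afatinib, 3 of the 10 genes rose, *Prdx1*, *Srxn1* and *Gclm*, and none fell. Over all genes tested Afatinib raised 9.06% and lowered 12.8% (limma, Benjamini-Hochberg adjusted p under 0.05 across the genes tested). The log2 fold changes of the 10 genes had a median of 0.39, against 0.03 over all genes, and 8 of 10 had a fold change above 0. This median was higher with Tofacitinib (0.57), Lenvatinib (0.52), Refametinib (0.51), TG100115 (0.45), PF04691502 (0.44), Lapatinib (0.41) and MK2206 (0.40). With these CKIs the median over all genes was 0.10 to 0.18. Midostaurin and Momelotinib had 9 of the 10 genes above 0. *Prdx1* and *Srxn1* had their highest mean among the 59 groups with Afatinib.

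*Prdx1* had normalized values of 23844, 20799 and 15672 with Afatinib, and from 7448 through a median of 9714 to 15767 in DMSO. The first 2 samples were above every DMSO sample and the third was just below the highest. The log2 fold change was 0.94 (SE 0.25, adjusted p = 0.00268 by limma), corresponding to means of 20105 ± 4130.0 (SD, n = 3) and 10615 ± 2942 (SD, n = 6). This call was kept under every alternative fit and with every sample left out, with adjusted p of at most 0.0461, but not when a log2 fold change of 1 was required as well.

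*Srxn1* had values of 364, 491 and 406 with Afatinib, and from 273 through 294.5 to 345 in DMSO, so that the groups did not overlap. The log2 fold change was 0.48 (SE 0.14, adjusted p = 0.00905 by limma). Without the second Afatinib sample, the highest of the 3, and in a fit of only Afatinib and DMSO, the call was lost, with an adjusted p of up to 0.167. Over the 58 CKIs, *Srxn1* rose only with Afatinib, and the step from the next highest group mean, that of Midostaurin, was 0.24 on the log2 scale, above the SD between replicates of 0.20.

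*Gclm* had values of 36, 41 and 39 with Afatinib, and from 13 through 23.5 to 33 in DMSO. The log2 fold change was 0.79 (SE 0.29, adjusted p = 0.0396 by limma). This call was lost when any of the 3 Afatinib samples, the third sample of the first DMSO set or the second sample of the second DMSO set was left out, against either DMSO set alone, without the filter on low values and in a fit of only Afatinib and DMSO, with an adjusted p of up to 0.169. *Gclc*, the partner subunit, had values of 26, 33 and 26 with Afatinib, all above the DMSO range of 15 to 21, with a log2 fold change of 0.68 (95% interval 0.07 to 1.29) and an adjusted p of 0.1002 by limma.

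The other genes did not pass the test with Afatinib. *Slc7a11* had values of 371, 352 and 472, within the DMSO range of 159 to 518, and a log2 fold change of 0.41 (95% interval -0.02 to 0.83). *Hmox1*, often used as the reporter of this program in macrophages, had values of 3906, 4768 and 3628 against 2986 to 3805 in DMSO, a log2 fold change of 0.18 (95% interval -0.03 to 0.40). *Nqo1* had values of 94, 39 and 48 against 29 to 66, with only the first sample above DMSO. *Txnrd1* had a log2 fold change of -0.01 (95% interval -0.20 to 0.18), *Sqstm1* of 0.23 (-0.03 to 0.49) and *Gsr* of -0.26 (-0.73 to 0.21). The mitochondrial share was 1.58% with Afatinib and 1.15% in DMSO, and with this share as a covariate together with the replicate number 4 of the 10 genes were raised. In that fit Afatinib raised 1690 of all 12714 genes, against 1152 in the main fit and 1733 with the replicate number alone.

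With Neratinib none of the 10 genes was called in either direction. Over all 12714 genes 0% were raised and 0% lowered, and limma gave 308 genes but none of the 10 at an unadjusted p under 0.05. *Prdx1* had values of 13825, 8439 and 8399, inside the DMSO range, and a log2 fold change of -0.05 (95% interval -0.54 to 0.43). *Srxn1* had values of 278, 276 and 403, with the third sample above DMSO, and a log2 fold change of 0.07 (-0.21 to 0.35). For *Gclm* the values were 21, 28 and 34 and the log2 fold change 0.30 (-0.28 to 0.87), and for *Hmox1* they were 3600, 3629 and 2797, with a log2 fold change of -0.11 (-0.33 to 0.11). The log2 fold changes of all 10 genes lay between -0.24 and 0.30 with Neratinib, with a median of 0.05 against 0.04 over all genes.

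**Figure D1:**
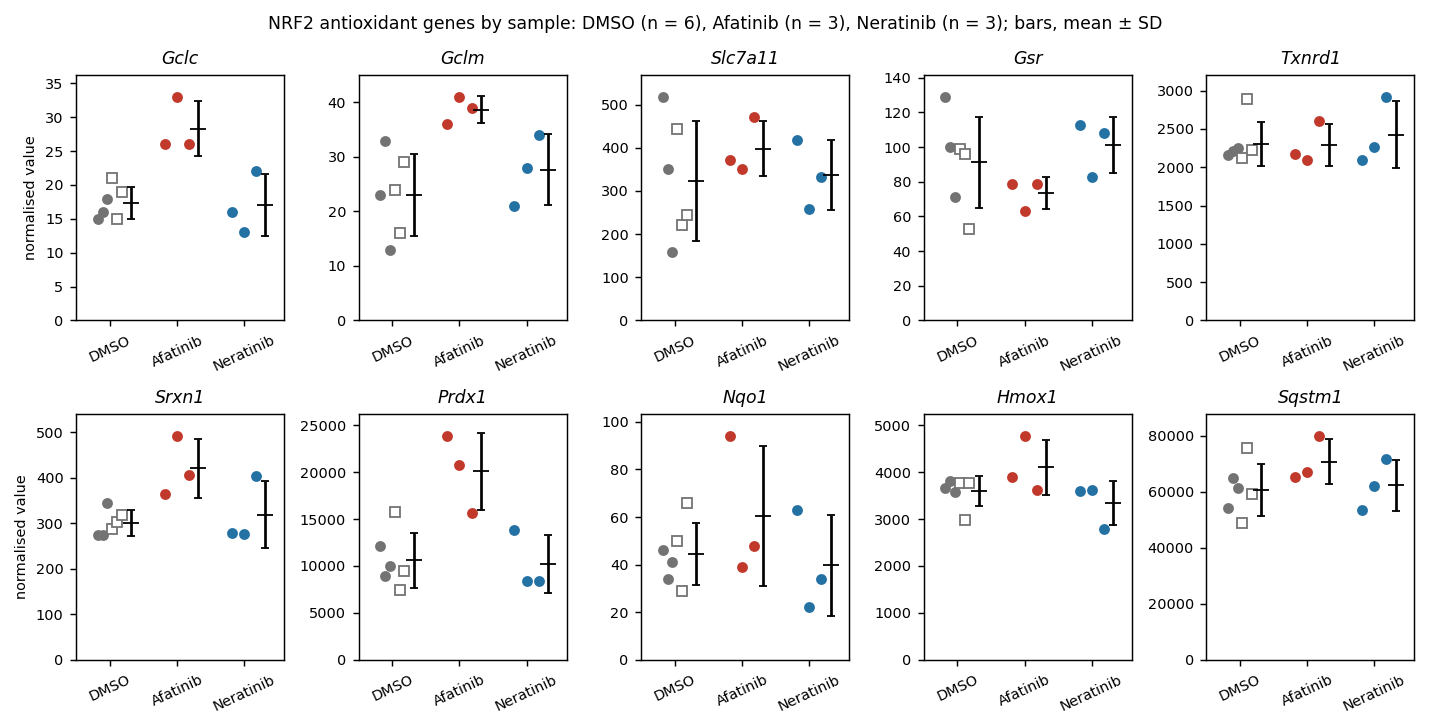
Normalized values (y axes, from 0) of the 10 genes in each sample of DMSO (grey circles, first set; open squares, second set), Afatinib (red) and Neratinib (blue), with mean ± SD beside the points. The Afatinib samples of *Srxn1*, *Gclm* and *Gclc* lie above all DMSO samples, whereas the Neratinib samples overlap with DMSO for all 10 genes. The share of all genes without such an overlap was not computed for either CKI.

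The other ERBB inhibitors differed among themselves in the number of calls. With Poziotinib, the third covalent inhibitor among those of ERBB kinases, none of the 10 genes and 0% of all genes were called by limma. For 1 of the 10 genes and 684 of all genes limma gave an unadjusted p under 0.05. *Prdx1* (14600, 8453 and 9779), *Srxn1* (325, 291 and 344) and *Gclm* (40, 25 and 21) overlapped with DMSO. The reversible inhibitor AC480 also had no call among the 10 genes and 0% of all genes called. With AC480, 3 of the 10 genes and 1457 of all genes had an unadjusted p under 0.05 by limma. Lapatinib, also reversible, raised *Prdx1*, with values of 18989, 18671 and 17720 and a log2 fold change of 0.84 (SE 0.25, adjusted p = 0.0122 by limma), and *Gclc*, with values of 25, 37 and 32 and a log2 fold change of 0.81 (SE 0.31, adjusted p = 0.0443). Lapatinib raised 18.1% of all genes, and its mitochondrial share was 2.76%. With this share as a covariate together with the replicate number, neither call of Lapatinib remained, the adjusted p being 0.0890 for *Prdx1* and 0.528 for *Gclc*. The macrophage markers *Cd68* (log2 fold change 1.53, SE 0.45) and *Fcgr1* (1.22, SE 0.42), 2 of 7, also rose with Lapatinib. So did the neutrophil markers *S100a8* (1.58, SE 0.51) and *S100a9* (1.77, SE 0.58), 2 of 4 tested, and the LPS response markers *Il1b* (1.32, SE 0.41) and *Ifnb1* (1.75, SE 0.40), 2 of 5. Their part in these results was not tested. *Srxn1* was at 272, 276 and 273 with Lapatinib, at the lower end of DMSO. Mubritinib, an inhibitor developed against ERBB2, raised *Slc7a11*, with values of 544, 529 and 478 and a log2 fold change of 0.79 (SE 0.22, adjusted p = 0.0279 by limma), where 1.08% of all genes were raised.

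A further 50 genes of the pathway were followed in 6 lists, and 48 of them were tested. Afatinib raised 9 of these and lowered 3, where 9.06% of all genes were raised and 12.8% lowered. Their median log2 fold change was 0.22 against 0.03 over all genes, whereas none was called with Neratinib (limma, median -0.06). Without the second Afatinib sample 4 were raised and 1 lowered, and without the first 7 and 1, fits for which the shares of all genes were not computed. Of the same 48 genes, Lapatinib raised 16 and lowered 5 (limma, median 0.25), where 18.1% of all genes were raised and 5.26% lowered. Pimasertib raised 15 and lowered 3 (median 0.29), against 16.0% and 5.68%. Omipalisib raised 12 and lowered 2 (median 0.13), against 17.5% and 8.16%. AZD2014 raised 2 and lowered 5, PH797804 lowered 1, and Poziotinib, AC480 and Mubritinib had none called. Among the 8 regulators, *Mafg*, a small MAF partner of NRF2, rose from 46 to 80 in DMSO to 146, 182 and 127 with Afatinib (log2 fold change 1.20, SE 0.26, adjusted p = 0.000252 by limma). *Rbx1*, a subunit of the ubiquitin ligase that degrades NRF2, rose by 0.32 (SE 0.11, adjusted p = 0.0191). *Nfe2l2* itself had values of 2882, 3149 and 2459 against 1713 to 3166 in DMSO and a log2 fold change of 0.24 (SE 0.15, adjusted p = 0.225). *Keap1* and *Bach1* had log2 fold changes of -0.08 (SE 0.21) and -0.29 (SE 0.21), neither past the test. The median of the 8 regulators was 0.05 with Afatinib, which raised 2 of them (limma). Omipalisib raised 5, with a median of 0.60, where 17.5% of all genes were raised. Lapatinib raised 2 and lowered 2, Pimasertib raised 2 and lowered 1, and AZD2014 lowered 1.

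Among the 11 other detoxification genes, Afatinib raised 3 and lowered 1, against 9.06% raised and 12.8% lowered of all genes. *Osgin1*, a target of NRF2, rose from 12 to 40 in DMSO to 70, 126 and 53, a log2 fold change of 1.86 (SE 0.34, adjusted p = 1.49e-05 by limma). *Esd*, S-formylglutathione hydrolase, rose by 0.94 (SE 0.25, adjusted p = 0.003) and the carbonyl reductase *Cbr1* by 0.44 (SE 0.13, adjusted p = 0.00896), while *Ugdh*, UDP-glucose dehydrogenase, which was named after its value was seen, fell by 0.29 on the log2 scale. Of the 6 NADPH enzymes only *Pgd*, of the pentose phosphate pathway, rose (0.47, SE 0.11, adjusted p = 0.00129). Of 9 other thioredoxin genes *Txn2* (0.34, SE 0.11, adjusted p = 0.0168) and *Prdx2* (0.44, SE 0.15, adjusted p = 0.0290) rose. Of 8 other glutathione genes tested none rose and *Abcc1*, an exporter of glutathione conjugates, fell by 0.95 on the log2 scale (SE 0.16, adjusted p = 2.98e-06 by limma). Its means were 793 ± 436 (SD, n = 3) with Afatinib and 1452 ± 403 (SD, n = 6) in DMSO. The call was kept with every sample left out but lost in a fit of only Afatinib and DMSO (adjusted p = 0.103 by limma). Of the 6 heme and iron genes the biliverdin reductase *Blvrb* rose by 0.23 (adjusted p = 0.0451 by limma) and the heme transporter *Slc48a1* fell by 0.32 on the log2 scale (adjusted p = 0.0379). The call of *Blvrb* was lost in 5 of 11 alternative fits and 7 of 9 with a sample left out, that of *Slc48a1* in 4 and 6, and that of *Prdx2* in 4 and 3. Without the second Afatinib sample the calls of *Rbx1*, *Txn2*, *Cbr1* and *Ugdh* were lost as well. Those of *Mafg*, *Osgin1*, *Esd* and *Pgd* were kept with every sample left out and in every alternative fit the gene entered, *Osgin1* being below the filter of 50, but *Esd* and *Pgd* do not reach a log2 fold change of 1.

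A list of 13 genes induced by ATF4, the transcription factor of the amino acid and unfolded protein responses that also acts on *Slc7a11*, was followed beside the NRF2 genes. With Afatinib 12 of its genes rose and 1 fell (limma), where 9.06% of all genes were raised and 12.8% lowered. The median log2 fold change of the list was 1.81, against 0.03 over all genes. *Atf4* had values of 4987, 5933 and 5834 with Afatinib against 1293 to 1753 in DMSO (log2 fold change 1.81, SE 0.09, adjusted p = 8.29e-36). *Trib3*, a pseudokinase induced under stress, had 601, 983 and 855 against 35 to 93 (3.81, SE 0.34, adjusted p = 3.69e-17). *Chac1*, an enzyme that breaks down glutathione, had 93, 188 and 206 against 5 to 14 (4.14, SE 0.47, adjusted p = 1.66e-11). The gene that fell was *Ddit4*, at a mean of 2 ± 1 (SD, n = 3) against 10 ± 3.29 (SD, n = 6), named after its value was seen. With Neratinib none of the 13 was called (limma), and *Atf4* was at 1800, 1497 and 1529. Mubritinib raised 6 of the 13, where 1.08% of all genes were raised, and PH797804 raised 3, where 0.731% were. Omipalisib also raised 3, with 17.5% of all genes raised, and AZD2014 lowered 5, among them *Atf4*, with 13.5% of all genes lowered. The difference between the ATF4 and NRF2 lists was not tested.

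Of 8 heat shock genes, *Hsp90aa1* rose by 0.52 (SE 0.20) and *Bag3* fell by 0.48 on the log2 scale (SE 0.11) with Afatinib. Among the markers, *Il1b*, an inflammatory cytokine induced by LPS, was at a mean of 1178 ± 339 (SD, n = 3) with Afatinib and 4048 ± 1442 (SD, n = 6) in DMSO, a log2 fold change of -1.76 (SE 0.41, adjusted p = 0.000733 by limma). *Il1b* was the only one of the 5 LPS response markers that was called, and *Tnf* had a log2 fold change of 0.75 (SE 0.31, adjusted p = 0.0645 by limma). *Mertk* (-0.59, SE 0.17) was the only one of the 7 macrophage markers called. *Xcr1* (-0.74, SE 0.26), the only dendritic cell marker tested, was called lowered, while none of the 4 neutrophil and 2 fibroblast markers tested was called. The calls of *Hsp90aa1* and *Xcr1* were lost in several of the fits with a sample left out. The summed macrophage markers were 87817 to 179422 with Afatinib, inside the DMSO range. The part of these shifts in the changes of the antioxidant genes was not tested.

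**Figure D2:**
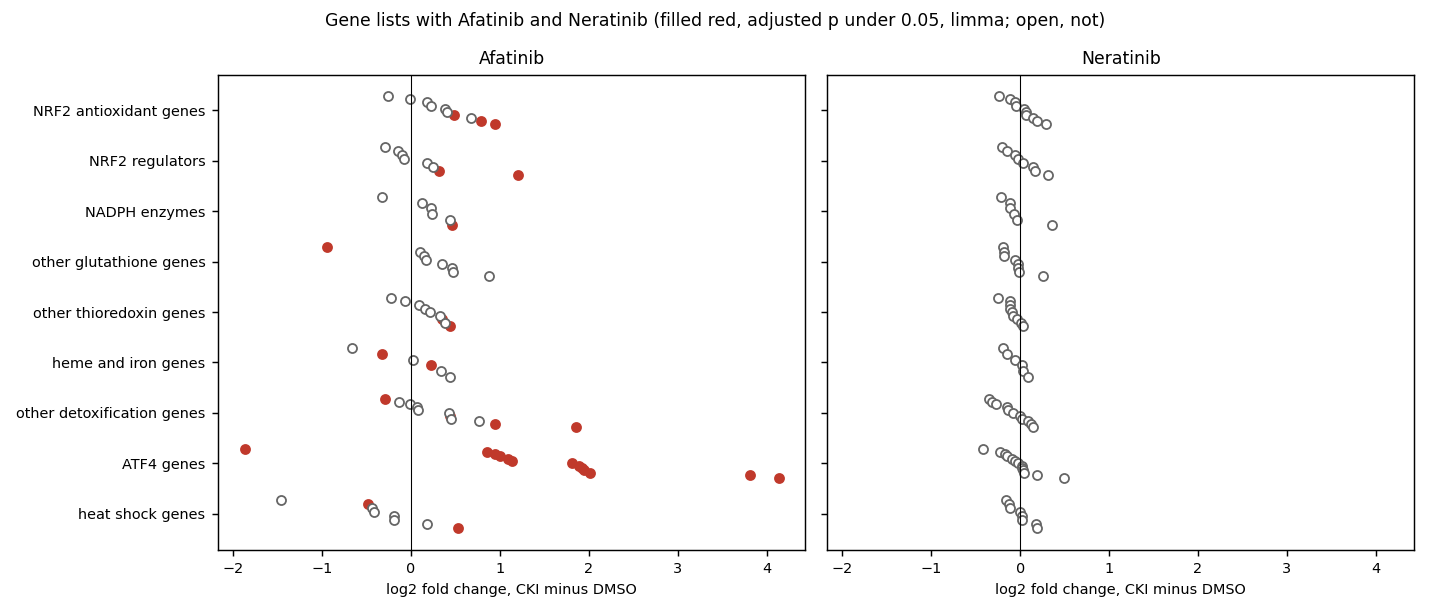
Log2 fold changes (x axis, CKI minus DMSO) of the genes of each list (rows) with Afatinib (left) and Neratinib (right); filled red points passed the test at an adjusted p under 0.05 by limma and open points did not. With Afatinib 12 of the 13 ATF4 genes rose, against 3 of the 10 NRF2 antioxidant genes and 9.06% of all genes, and with Neratinib no gene was called.

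Across all 58 CKIs the 10 genes gave 580 fold changes, of which 21 were called raised and 17 lowered. Over all genes and CKIs 2.52% of the fold changes were raised and 1.65% lowered. When the samples were scaled further by the median of ratios, 15 were raised and 25 lowered, and the shares over all genes became 1.65% raised and 2.4% lowered. This scaling moved the median of all genes by more than 0.1 with 18 CKIs, among those named here by -0.10 with Omipalisib, -0.12 with Pimasertib and -0.11 with Lapatinib on the log2 scale. At least 1 of the 10 genes was called with 15 CKIs, and any gene with 41. All CKIs were compared with the same 6 DMSO samples, so that the counts over CKIs are not independent. The second sample of the second DMSO set had the highest *Txnrd1* and *Sqstm1* and the lowest *Prdx1*, *Nqo1* and *Hmox1* of the 6, and without it 10 were raised and 13 lowered. Without the third sample of the first set 13 were raised, and without the first sample of the second set 38. With replicate 1, 2 or 3 of every CKI left out, 9, 7 and 11 were raised and 6, 15 and 17 lowered. The shares of all genes were not computed for the fits with samples left out. With the replicate number as a block, which the main fit left out, more of the 580 fold changes were called in each direction, as given at the end. The shares of all genes were then 4.60% raised and 3.08% lowered.

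**Figure D3:**
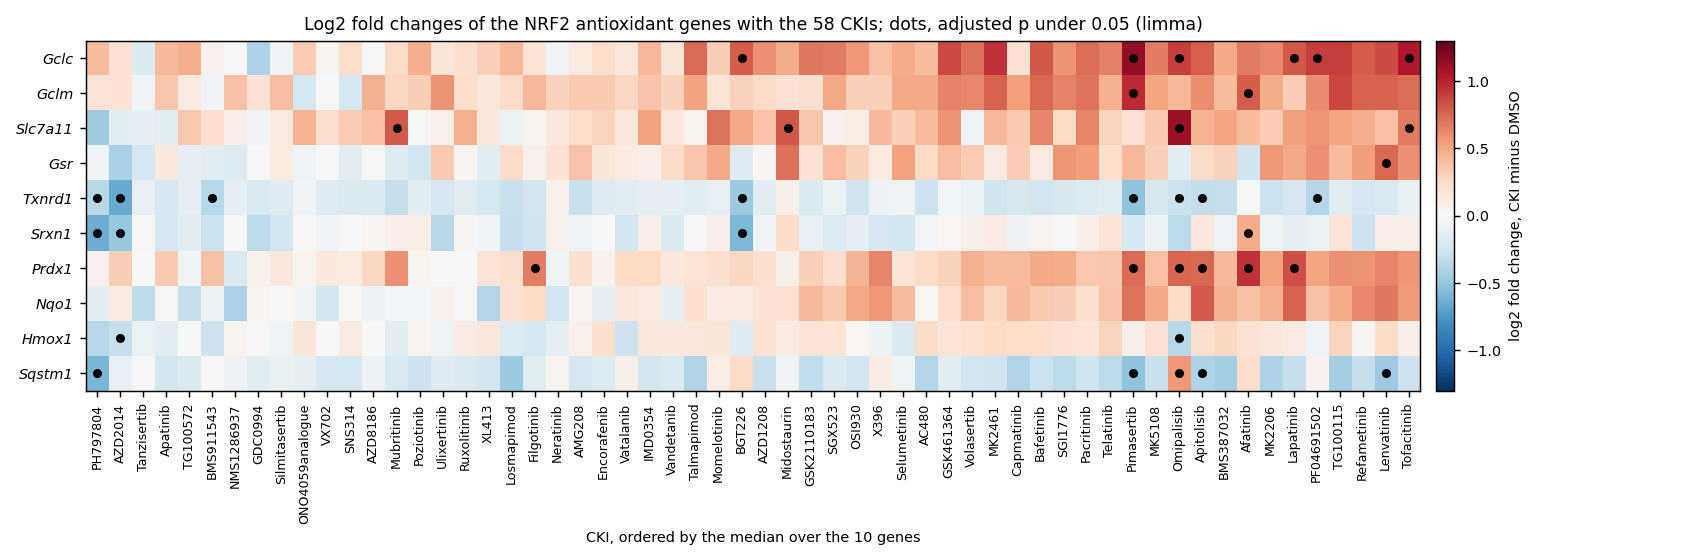
Log2 fold changes (color, CKI minus DMSO) of the 10 genes (rows) with each of the 58 CKIs (columns, ordered by the median over the 10 genes), with dots where the adjusted p was under 0.05 by limma. The 21 raised calls lie mainly in *Gclc*, *Prdx1* and *Slc7a11* and the 17 lowered ones in *Txnrd1*, *Sqstm1* and *Srxn1*, and *Nqo1* has none.

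The CKIs with 3 or more of these genes called in 1 direction were Afatinib, Omipalisib, Pimasertib, AZD2014 and PH797804. Omipalisib, an inhibitor of PI3K and mTOR, raised *Gclc*, *Slc7a11*, *Prdx1* and *Sqstm1* and lowered *Txnrd1* and *Hmox1*, where 17.5% of all genes were raised and 8.16% lowered. Pimasertib, a MEK inhibitor, raised *Gclc*, *Gclm* and *Prdx1* and lowered *Txnrd1* and *Sqstm1*, where the shares were 16.0% and 5.68%. AZD2014, an mTOR kinase inhibitor, lowered *Txnrd1*, *Srxn1* and *Hmox1*, where 13.5% of all genes were lowered. PH797804, a p38 inhibitor, lowered *Txnrd1*, *Srxn1* and *Sqstm1*, where only 1.25% of all genes were lowered. Without the first PH797804 sample, which had the lowest value of all 3 genes, none of the 3 was called. With the mitochondrial share as a covariate together with the replicate number, none of the raised calls of Pimasertib and 1 of its lowered calls remained, and without its replicate 3 none of these genes was raised. The macrophage markers *Cd68* (log2 fold change 1.61, SE 0.45) and *Fcgr1* (1.15, SE 0.42), 2 of 7, rose with Pimasertib. So did the neutrophil markers *S100a8* (1.66, SE 0.51) and *S100a9* (1.97, SE 0.58), 2 of 4 tested, and the LPS response marker *Ifnb1* (1.35, SE 0.40), 1 of 5. With Omipalisib *Mertk* (1.24, SE 0.17), 1 of the 7 macrophage markers, and *Ifnb1* (3.67, SE 0.40), 1 of the 5 LPS response markers, rose. The only dendritic cell marker tested, *Xcr1*, rose too (1.11, SE 0.26). The neutrophil markers *Mpo* (-2.18, SE 0.48) and *Elane* (-3.69, SE 0.39) fell, 2 of 4 tested. AZD2014 raised 1 of the 7 macrophage markers and lowered *Xcr1* (-0.69). The part of these markers in the results was not tested.

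With fewer calls, Apitolisib raised *Prdx1* and lowered *Txnrd1* and *Sqstm1*, against 12.7% raised and 3.20% lowered of all genes, and BGT226 raised *Gclc* and lowered *Txnrd1* and *Srxn1*, against 24.1% and 6.32%. PF04691502, like these an inhibitor of PI3K and mTOR, raised *Gclc* and lowered *Txnrd1*, against 8.86% and 4.22%. Tofacitinib, a JAK inhibitor, raised *Gclc* and *Slc7a11*, against 9.02% of all genes. Filgotinib, which inhibits JAK1, raised *Prdx1*, against 6.10%, and BMS911543, which inhibits JAK2, lowered *Txnrd1*, against 8.08%. Lenvatinib raised *Gsr* and lowered *Sqstm1*, against 11.4% and 0.802%, and Midostaurin raised *Slc7a11*, against 2.63%. The mitochondrial share was 2.93% with Apitolisib, 2.77% with Lenvatinib, 2.69% with PF04691502 and 2.64% with Tofacitinib. With it as a covariate together with the replicate number, all 3 calls of Apitolisib, both of Lenvatinib, both of Tofacitinib and that of *Gclc* with PF04691502 were lost, and over all CKIs 14 of the 38 calls were.

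Of the glutathione genes, *Gclc* was called in 6 CKIs, always raised. With Pimasertib it reached 29, 44 and 47, and with Tofacitinib 37, 42 and 31, against 15 to 21 in DMSO, all samples lying above DMSO. The log2 fold changes were 1.14 (SE 0.31, adjusted p = 0.00722 by limma) and 1.04 (SE 0.31, adjusted p = 0.0279). The other calls of *Gclc*, with BGT226, Lapatinib, Omipalisib and PF04691502, had log2 fold changes of 0.78 to 0.90. With the mitochondrial share as a covariate together with the replicate number, the adjusted p of *Gclc* was 0.684 with Pimasertib and 0.279 with Tofacitinib, and the calls with BGT226 and Omipalisib alone remained. Without the second sample of the second DMSO set 2 of the 6 calls remained, those with Omipalisib and Pimasertib. *Gclc* had a fold change above 0 with 53 CKIs, with a median of 0.47 on the log2 scale, and the DMSO mean was the fifth lowest of the 59. The median over all genes was itself above 0 with most CKIs, running from -0.04 with NMS1286937 to 0.21 with BGT226. When the samples were scaled by the median of ratios, the fold change of *Gclc* was above 0 with 52 CKIs. *Gclm* rose with Afatinib and with Pimasertib (34, 49 and 51, log2 fold change 0.97, SE 0.29, adjusted p = 0.0139 by limma).

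*Slc7a11* rose with 4 CKIs and most with Omipalisib, whose samples were at 703, 554 and 693. The highest DMSO sample was at 518 and the lowest at 159. The log2 fold change was 1.12 (SE 0.22, adjusted p = 1.86e-05 by limma), and this call was kept under every alternative fit and with every sample left out. Omipalisib and Midostaurin were separated by 0.31 on the log2 scale, slightly above the SD between replicates, also 0.31. The calls with Midostaurin (0.80, SE 0.22), Mubritinib (0.79) and Tofacitinib (0.67, SE 0.22) were each lost without the third sample of the first DMSO set, which held the value of 159. *Gsr* rose only with Lenvatinib, with samples at 144, 173 and 131 against 53 to 129 in DMSO (log2 fold change 0.75, SE 0.24, adjusted p = 0.0344 by limma), a call that was lost without any of the 3 Lenvatinib samples.

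Of the thioredoxin genes, *Txnrd1* was lowered by 8 CKIs and raised by none, and had a fold change below 0 with 56 of 58. AZD2014 lowered it most, to 1383, 1386 and 1628 from 2114 to 2886 in DMSO (log2 fold change -0.65, SE 0.10, adjusted p = 3.08e-08 by limma). Pimasertib samples were at 1426, 1666 and 1695 (-0.53, SE 0.10, adjusted p = 5.59e-05) and BGT226 samples at 1614, 1576 and 1754 (-0.48, SE 0.10, adjusted p = 2.76e-05). In these 3 CKIs no sample reached the DMSO range, and the calls were kept under every alternative fit and with every sample left out, but not with a required log2 fold change of 1. Of the other calls, Apitolisib, Omipalisib and PH797804 (log2 fold changes of -0.31, -0.28 and -0.36) were lost without the second sample of the second DMSO set, whose *Txnrd1* value of 2886 stood apart from the 2114 to 2252 of the others, and 5 lowered calls remained. The fold change was below 0 with 53 CKIs without that sample.

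*Srxn1* fell with 3 CKIs. PH797804 samples were at 152, 215 and 212 against 273 to 345 in DMSO (log2 fold change -0.65, SE 0.14, adjusted p = 0.00232 by limma), BGT226 samples at 220, 207 and 172 (-0.59, SE 0.14, adjusted p = 0.000561) and AZD2014 samples at 171, 225 and 250 (-0.49, SE 0.14, adjusted p = 0.00727). All 9 values lay below the lowest DMSO sample. The call with BGT226 was kept under every alternative fit and with every sample left out, though its fold change is under the log2 value of 1, whereas that with AZD2014 was lost without its first sample.

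*Prdx1* rose with 6 CKIs, of which Afatinib had the largest log2 fold change. The others were Lapatinib (0.84), Omipalisib (0.76), Apitolisib (0.75), Pimasertib (0.74) and Filgotinib (0.67), each with an SE of 0.25. Omipalisib samples were at 17677, 18574 and 16249, all above the highest DMSO sample at 15767. Filgotinib samples were at 16642, 18062 and 14622, overlapping with it. Without the second sample of the second DMSO set 3 of the 6 calls remained, since those with Apitolisib, Filgotinib and Pimasertib were lost.

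*Nqo1*, a widely used NRF2 target, was called with none of the 58 CKIs. Its log2 fold changes ran from -0.42 with NMS1286937 to 0.80 with Apitolisib, with an SD between replicates of 0.45 on the log2 scale. *Hmox1* was raised by none and lowered by AZD2014 (2874, 3128 and 2776) and Omipalisib (2819, 3023 and 2480), where the DMSO samples ran from 2986 through 3722 to 3805. The log2 fold changes were -0.30 (SE 0.11, adjusted p = 0.0436 by limma) and -0.38 (SE 0.11, adjusted p = 0.00627). The call with AZD2014 was lost without any of its 3 samples and without 5 of the 6 DMSO samples in turn. Its highest group means, 4408 with both TG100115 and Telatinib, were not called. In the fit with the replicate number as a block *Hmox1* was raised with 1 CKI and lowered with 3.

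*Sqstm1* rose only with Omipalisib, to 80944, 77684 and 112063 from 48792 to 75663 in DMSO (log2 fold change 0.57, SE 0.13, adjusted p = 0.000435 by limma), and the call was kept under every alternative fit and with every sample left out, but not with a required log2 fold change of 1. The Omipalisib mean exceeded the next, that of BGT226, by 0.32 on the log2 scale, against an SD between replicates of 0.18. It fell with PH797804 (36467, 45686 and 37929, log2 fold change -0.59, SE 0.13, adjusted p = 0.00247), Pimasertib (-0.52, SE 0.13), Lenvatinib (-0.47, SE 0.13) and Apitolisib (-0.40, SE 0.13). The samples with PH797804, Pimasertib and Lenvatinib were all below DMSO, and 2 of the 3 with Apitolisib were. The calls with Lenvatinib and Apitolisib were lost without the second sample of the second DMSO set, whose *Sqstm1* value of 75663 was the highest.

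**Figure D4:**
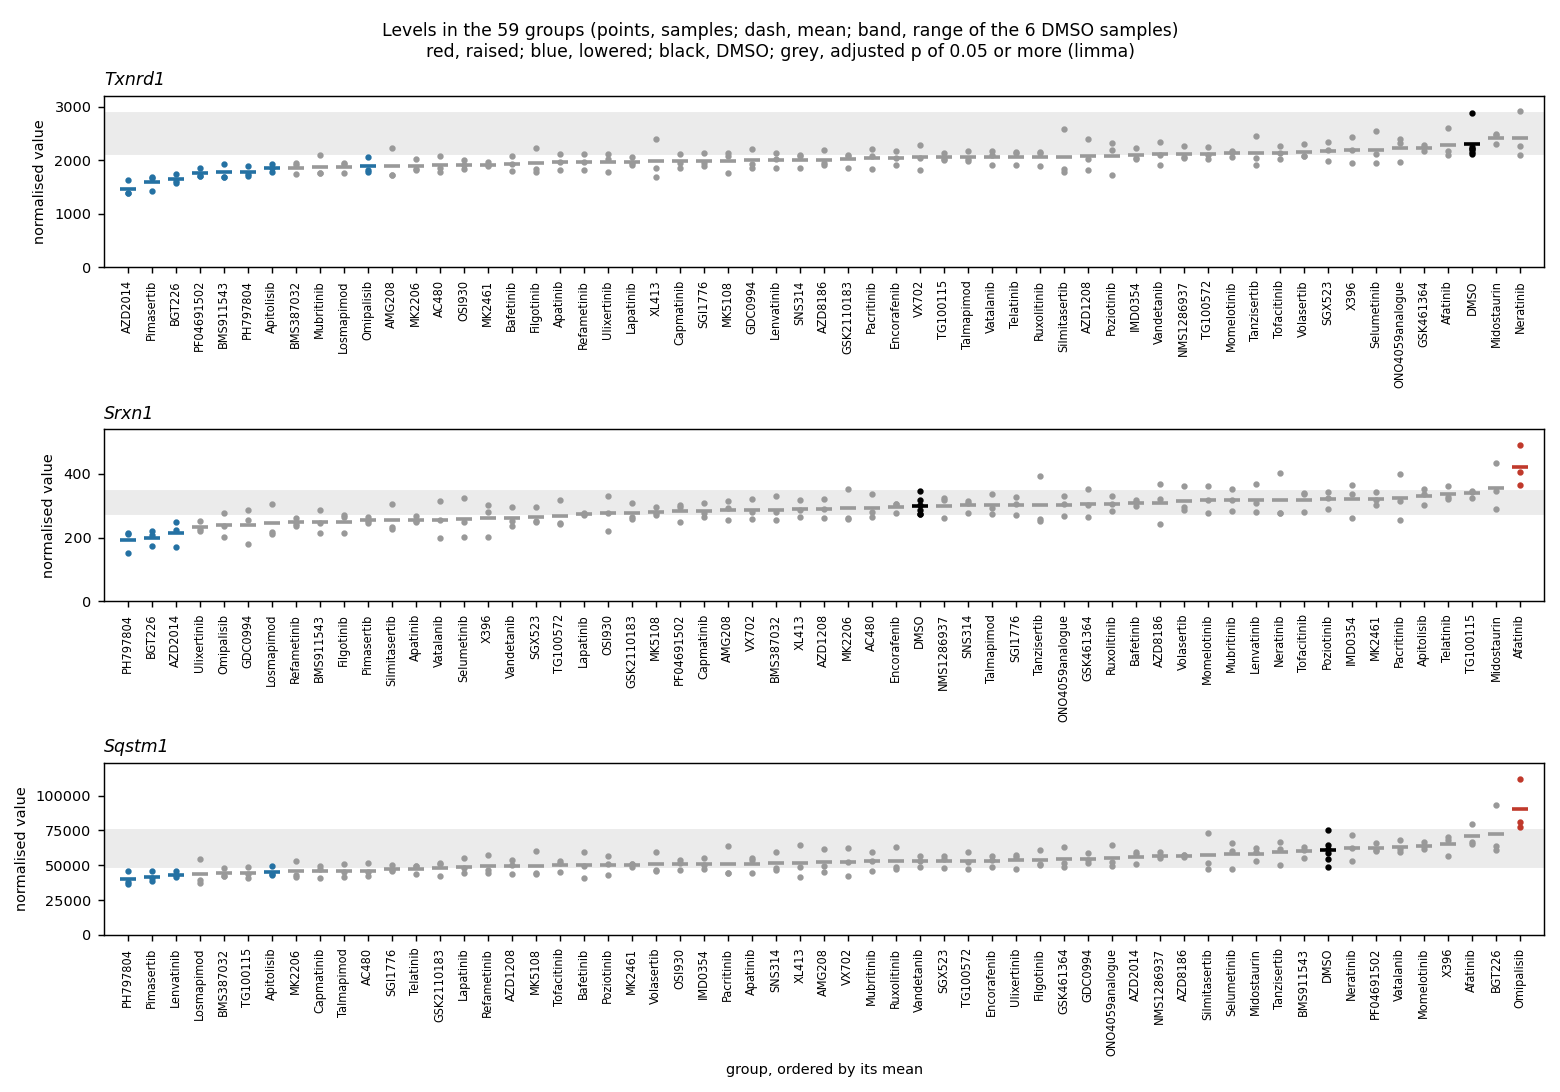
Normalized values (y axes, from 0) of *Txnrd1*, *Srxn1* and *Sqstm1* in the 59 groups (x axes, ordered by group mean), with points for samples, dashes for means and a grey band for the range of the 6 DMSO samples. *Srxn1* is highest with Afatinib and *Sqstm1* with Omipalisib, whereas the DMSO mean of *Txnrd1* is the 57th lowest of 59 and 8 CKIs were called lowered.

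For most genes the order of the 59 group means was a gradual one. Of the 58 steps between neighbors, none exceeded the SD between replicates for *Gclc*, *Gclm*, *Gsr*, *Txnrd1*, *Prdx1*, *Nqo1* and *Hmox1*. *Slc7a11* had 2 such steps, the lower one between PH797804 and Apatinib, and *Srxn1* and *Sqstm1* had 1 each. The SD between replicates on the log2 scale ran from 0.13 for *Txnrd1* to 0.45 for *Nqo1*.

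The 10 genes did not vary as a single group. Across the 59 group means of log2(normalized value + 1), which share the authors' scaling and come from the same libraries, *Prdx1* and *Nqo1* had a Pearson correlation of 0.78, *Gclc* and *Nqo1* of 0.71, *Srxn1* and *Hmox1* of 0.69 and *Gclc* and *Gclm* of 0.66. *Hmox1* and *Sqstm1* had -0.46 and *Txnrd1* and *Prdx1* -0.30. *Gclc*, *Gclm*, *Prdx1*, *Nqo1* and *Gsr* followed the mitochondrial share of the group, with Pearson correlations of 0.77, 0.73, 0.71, 0.80 and 0.64, while *Srxn1* (0.13) and *Txnrd1* (-0.24) did so little. *Gclc* had the widest spread of group means, and the genes most like it over the 59 groups were *Gm4631* (Pearson 0.83), the mitochondrial *mt-Rnr1* (0.81) and *mt-Nd5* (0.81), *Fbxo33* (0.81) and *D6Wsu163e* (0.81). The part of the mitochondrial share in these levels was not tested beyond its use as a covariate.

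**Figure D5:**
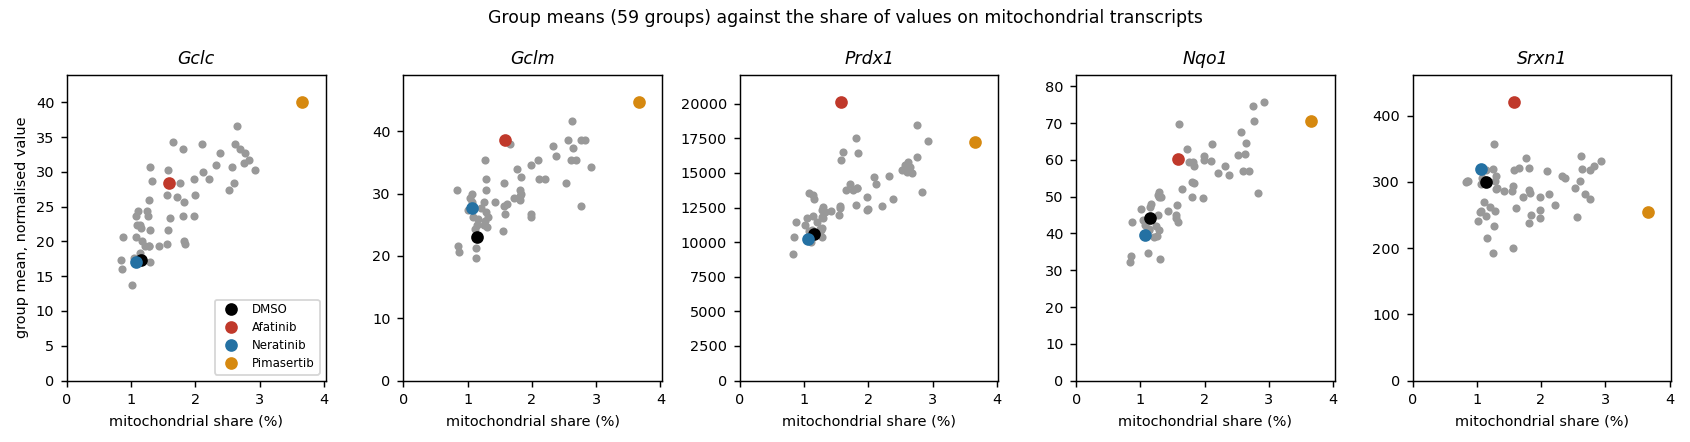
Group means of *Gclc*, *Gclm*, *Prdx1*, *Nqo1* and *Srxn1* (y axes, normalized values from 0) against the mean share of values on mitochondrial transcripts (x axes, percent) in the 59 groups, with DMSO, Afatinib, Neratinib and Pimasertib colored. *Prdx1* with Afatinib lies above the groups of a similar share, 20105 at 1.58%, whereas *Gclc* and *Nqo1* are higher where the share is, at 40.0 and 70.7 with Pimasertib at 3.66%.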

How the data were processed

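RNA-seq libraries of polyadenylated RNA (SMART-seq2 with Tn5 tagmentation, which does not mark the strand) were made from 180 BMDM samples. The authors aligned reads to mm10 with TopHat2 2.1.1, reporting at most 1 alignment per read, removed blacklisted regions with bedtools 2.29.2, counted exonic reads of RefSeq genes, scaled the samples on invariant genes and rounded the result. The deposited values are therefore not raw counts, and are treated here as a score per gene. No other column of per-sample values was left unused (0). The authors' own tests used DESeq2 in R 3.6.2 and are not used here.

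Values were tested as log2(value + 1) with limma 3.58.1 in R 4.3.3, with a variance trend and all 59 groups in 1 fit, each CKI against the 6 DMSO samples, after removing genes with a mean under 10. p-values were adjusted by Benjamini-Hochberg over all 12714 genes tested, and a call is an adjusted p under 0.05. Fold changes are on the log2(value + 1) scale, which understates changes of low genes, and intervals are at 95%. The raw depth of the libraries is not known from scaled values. Code was tested on simulated data. Figures were drawn with matplotlib 3.10.9. The 2 most alike samples had a correlation of 0.992 and no samples were identical. Which CKIs were run beside which DMSO set is not given in the sources used here.

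The genes named are the 10 antioxidant genes, *Nfe2l2*, *Keap1* and *Bach1*, up to 3 genes with the smallest p among those called with Afatinib in each other list (NRF2 regulators, NADPH enzymes, other glutathione, thioredoxin, heme and iron and detoxification genes, ATF4 genes, heat shock genes and cell type markers), and the 5 genes most correlated over group means with the member of widest spread. The CKIs named are Afatinib, Neratinib, the other ERBB inhibitors and those with 3 or more of the 10 genes called in 1 direction. The other CKIs, *Ugdh*, *Ddit4*, the value of *Tnf* with Afatinib and the markers given for Lapatinib, Pimasertib, Omipalisib and AZD2014 were named after their values were seen. The pathway list counts of CKIs other than Afatinib and Neratinib were also added after the values were seen. The genes and lists were chosen with earlier results of these data known. Alternatives were the pseudocount (0.5 or 10), the filter on low values (none or 50), the scaling, the DMSO set, the variance trend, the groups in the fit, a minimum log2 fold change of 1, the replicate number as a block, the mitochondrial share as a covariate with that block, and each sample left out.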

Additional observations from a re-analysis of the deposited data

Results flagged for a closer look

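In the 6 DMSO samples, 2 of the 10 genes had a sample far from the others. The highest *Txnrd1* value was 2886, the next being 2252, a gap of 0.821 of the whole range. The lowest *Hmox1* value was 2986, the next being 3586, a gap of 0.733 of the range. Both belong to the second sample of the second DMSO set. With this measure about 1 in 20 groups stands out by chance.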

How the results depend on the processing

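No depth of reads could be had from the scaled values, and for *Gclc* and *Gclm*, with low values, small changes were not detectable. Replicate numbers are shared between groups. CKI samples deviated from their group mean together with the DMSO samples of the same number at a median correlation of 0.348, with a range of -0.52 to 0.73. All 3 correlations were over 0.1 in 34 of 58 CKIs. Samples of the same number thus shared part of their spread in many CKIs, and the main fit left the numbers out. With the number as a replicate block 44 of the 580 fold changes were raised and 30 lowered, and 14 pathway genes were raised by Afatinib. By gene, the block changed the CKIs that raised *Gclm* from 2 to 4, *Slc7a11* from 4 to 10, *Gsr* from 1 to 6, *Prdx1* from 6 to 10, *Nqo1* from 0 to 2 and *Hmox1* from 0 to 1, and those that lowered *Txnrd1* from 8 to 14 and *Sqstm1* from 4 to 9, while the shares of all genes became 4.60% raised and 3.08% lowered. Over all alternative fits, the CKIs that raised *Gclc* numbered 1 to 9, *Gclm* 0 to 4, *Slc7a11* 1 to 10, *Gsr* 0 to 6, *Prdx1* 2 to 10 and *Sqstm1* 1 to 3, and those that lowered *Txnrd1* 3 to 14, *Srxn1* 1 to 4, *Hmox1* 0 to 4 and *Sqstm1* 1 to 9. Over all genes Afatinib raised 200 to 1733 and lowered 284 to 2213, against 1152 and 1628, and Neratinib had 71 calls without a filter and 0 in the other fits. The alternatives for the ATF4 list and the other named list genes were added after seeing the data. Against the first DMSO set alone, 9 were raised and 9 lowered, Omipalisib lowered 1 of the 10 genes, and Afatinib raised 5 pathway genes. Against the second set alone, 7 were raised, Omipalisib raised 2 and lowered 1, Pimasertib raised 1, and Afatinib lowered 1 pathway and 0 ATF4 genes. With a filter of 50, which removes *Gclc* and *Gclm*, 13 were raised, Pimasertib raised 1 and 0 ATF4 genes were lowered by Afatinib. Without a filter 13 were raised. With a minimum log2 fold change of 1, 3 were raised and 0 lowered, Omipalisib and Pimasertib raised 1 each, Afatinib raised 0, the lowered counts of AZD2014, Omipalisib, PH797804 and Pimasertib were 0, and Afatinib raised 2 and lowered 0 pathway genes. With the mitochondrial share and the block, Pimasertib raised 0 and lowered 1, and Afatinib raised 14 and lowered 5 pathway genes. In fits of only the groups compared, 11 were raised and 5 lowered, Afatinib raised 1, AZD2014 lowered 1, Omipalisib and PH797804 lowered 0, and Afatinib raised 4 and lowered 0 pathway genes. The cause of these shifts was not tested, apart from the fewer genes or samples entering some of them. With 1 sample left out in turn, the counts ran from 1 to 4 raised by Afatinib, 1 to 3 lowered by AZD2014, 2 to 4 raised and 1 to 2 lowered by Omipalisib, 0 to 3 lowered by PH797804, 0 to 3 raised by Pimasertib, 7 to 38 raised and 6 to 21 lowered over all CKIs, and, with Afatinib, 4 to 11 raised and 1 to 3 lowered pathway genes and 0 to 1 lowered ATF4 genes. Of the fold changes of single genes, 10 changed sign under 1 or more alternatives, and 0 of these were called. With Afatinib *Txnrd1* became 0.046 against the first DMSO set and 0.0049 with the mitochondrial share and the block, and with Neratinib *Gclc* became 0.028 against the first set. With 1 sample left out, *Txnrd1* with Afatinib ran from -0.11 to 0.057 and *Keap1* from -0.18 to 0.055. With Neratinib the ranges were -0.24 to 0.12 for *Gclc*, -0.030 to 0.33 for *Slc7a11*, -0.075 to 0.16 for *Txnrd1*, -0.11 to 0.16 for *Srxn1*, -0.29 to 0.069 for *Prdx1*, -0.63 to 0.11 for *Nqo1*, -0.18 to 0.011 for *Hmox1* and -0.062 to 0.15 for *Sqstm1*. Pseudocounts of 0.5 and 10 and the fit without a variance trend kept each of these counts within 1.5 times.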
